A study of Mus musculus with 9 samples.

Results

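Glucuronosyltransferases and sulfotransferases are the liver enzymes that make drugs, hormones, bilirubin, bile acids and plant or microbial phenols soluble by joining a sugar acid or a sulfate to them. Their genes were taken here as every row of the expression tables whose symbol begins with Ugt1a, Ugt2a, Ugt2b, Ugt3a, Sult1, Sult2, Sult3, Sult4, Sult5 or Papss. The rule uses names alone and no measured value, but it was chosen with earlier results of these data known. It found 39 of the 20325 genes, which are 20 glucuronosyltransferases (Ugt), 17 sulfotransferases (Sult) and 2 genes for the enzymes that make the sulfate donor (Papss).

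Polyadenylated RNA of whole livers was sequenced from male C57BL/6J mice on chow, 3 livers per group and 9 in all. ConvD mice were germ-free animals that received cecal contents of conventionally raised C57BL/6J donors by a single gavage at 15 weeks of age and lived with them for 4 weeks in sealed filter-top cages. GF+SCFA mice were germ-free animals whose water held butyrate at 40 mM, propionate at 25.9 mM and acetate at 67.5 mM. These short-chain fatty acids are major products of bacterial fermentation in the gut. GF mice were germ-free without this supplement. The labels give the age as 14 weeks in one place and as 19 weeks at dissection in another. Mice were caged by colonisation status, so effects of cage and of group cannot be told apart. Each group's 3 livers are labelled as biological replicates without naming the animal, and p-values reflect the spread between libraries. The design sets colonisation, and short-chain fatty acids without colonisation, against the germ-free state.

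A glucuronosyltransferase sits in the endoplasmic reticulum and transfers glucuronate from UDP-glucuronate, which is made from UDP-glucose by the dehydrogenase Ugdh. A cytosolic sulfotransferase transfers sulfate from PAPS (3'-phosphoadenosine 5'-phosphosulfate), which Papss1 and Papss2 make from sulfate and ATP. Gut bacteria supply phenols and indoles that reach the liver through the portal vein and leave it as sulfates and glucuronides, and bacterial glucuronidases and sulfatases can split such conjugates again in the gut.

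The Ugt1a rows belong to one gene locus in which each product has its own start and all share the same end. In the GENCODE transcripts of the mouse build GRCm38, each of the 8 Ugt1a members joins its own 1 or 2 exons to the same 4 common exons, which make up 57.1% to 71.7% of its transcript. The joints of 6 members are shown because they mark where the shared sequence of the common exons begins. Lower case marks the last 30 bases of the own exon, and capitals mark the 45 bases of the common exon that follow, chr1:88215044-88215088 on the plus strand. The own pieces lie at chr1:88056307-88056336 for Ugt1a10, chr1:88107770-88107799 for Ugt1a6b, chr1:88139302-88139331 for Ugt1a6a, chr1:88166874-88166903 for Ugt1a5, chr1:88201471-88201500 for Ugt1a2 and chr1:88212842-88212871 for Ugt1a1.
Ugt1a1: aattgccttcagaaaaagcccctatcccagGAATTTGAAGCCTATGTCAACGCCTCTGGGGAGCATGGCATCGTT
Ugt1a5: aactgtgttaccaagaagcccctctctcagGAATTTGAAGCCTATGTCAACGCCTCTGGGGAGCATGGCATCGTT
Ugt1a2: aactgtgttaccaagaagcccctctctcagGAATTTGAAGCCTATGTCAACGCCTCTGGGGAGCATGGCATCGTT
Ugt1a6a: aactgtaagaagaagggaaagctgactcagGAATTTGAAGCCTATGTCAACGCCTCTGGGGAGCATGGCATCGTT
Ugt1a6b: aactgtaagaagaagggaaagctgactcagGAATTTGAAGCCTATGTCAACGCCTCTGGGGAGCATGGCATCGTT
Ugt1a10: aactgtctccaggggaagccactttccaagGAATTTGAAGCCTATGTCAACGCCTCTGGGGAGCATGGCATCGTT
Ugt1a5 and Ugt1a2 carry the same 30 own bases at the joint, and so do Ugt1a6a and Ugt1a6b. Of all 50-base windows of a Ugt1a transcript, 40.5% to 80.7% also occur in another member's transcript. The share was 68.4% for Ugt2a1, 41.7% for Ugt2b5, 37.4% for Ugt2b38, 18.3% for Ugt2b37, 8.88% for Ugt3a1 and 8.55% for Ugt3a2. It was 0% for both Papss genes, for every Sult1 member, and for Sult2a7, Sult5a1, Ugt2b1 and Ugt2b35. The authors' counting program, RSEM, divides reads that match several genes, so values of single rows in the overlapping groups are uncertain and sums over a family are less so. The read length is not given in the sources used here.

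Of the 39 members, 26 had enough counts to be tested, 6 had counts under the filter and 7 had no count in any library. All 7 Ugt2b members, both Ugt3a members and both Papss members were tested, as were 6 of 8 Ugt1a, 2 of 3 Ugt2a and 5 of 6 Sult1 members. The hydroxysteroid sulfotransferases (Sult2) were nearly silent in these male livers, with 1 of 8 members tested. Sult2a1, Sult2a3, Sult2a4, Sult2a5 and Sult2a6 had 0 counts in all 9 libraries, as did Sult1c1 and Ugt2a2. A count of 0 allows up to 3 counts, which is 0.141 to 0.170 CPM (counts scaled to library total) per library and covers counting error only. Under the filter were Ugt1a7c with 35.4 estimated counts summed over the 9 libraries, Ugt1a2 with 29.5, Sult3a1 with 10, the cholesterol sulfotransferase Sult2b1 with 5, the brain form Sult4a1 with 3 and Sult2a2 with 2.

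Levels of different genes are compared in deposited TPM (transcript share scaled to gene length and depth). By mean TPM over the 9 livers, Ugt2b5 stood highest with 835 TPM, followed by Ugt2b1 with 613, Ugt2b36 with 555 and Sult1a1 with 336 TPM. Ugt3a2, Ugt2b34, Ugt1a1, Ugt2a3, Ugt1a6b and Ugt2b35 followed with 311, 310, 270, 246, 216 and 123 TPM. Papss2 had a mean of 116 TPM, Sult1d1 of 110 TPM and Ugt3a1 of 87.4 TPM. Ugt1a6a, Ugt1a5, Sult1b1, Ugt1a9, Sult5a1 and Ugt2b38 lay between 10.5 and 44.7 TPM, and Papss1, Sult1c2, Ugt2b37 and Sult2a7 between 1.62 and 6.23 TPM. Ugt1a10, Sult1e1 and Ugt2a1 were tested with means of 0.868, 0.637 and 0.401 TPM. Glucuronosyltransferases thus held most of the conjugating messenger RNA. Their summed TPM was 3741 ± 183 in ConvD, 3618 ± 131 in GF+SCFA and 3652 ± 186 in GF livers (SD, n = 3 each). The sulfotransferases summed to 351 ± 45.8 TPM in ConvD, 589 ± 60.8 TPM in GF+SCFA and 543 ± 168 TPM in GF livers. In whole tissue, fewer cells of a type and less RNA per cell cannot be told apart.

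**Figure D1:**
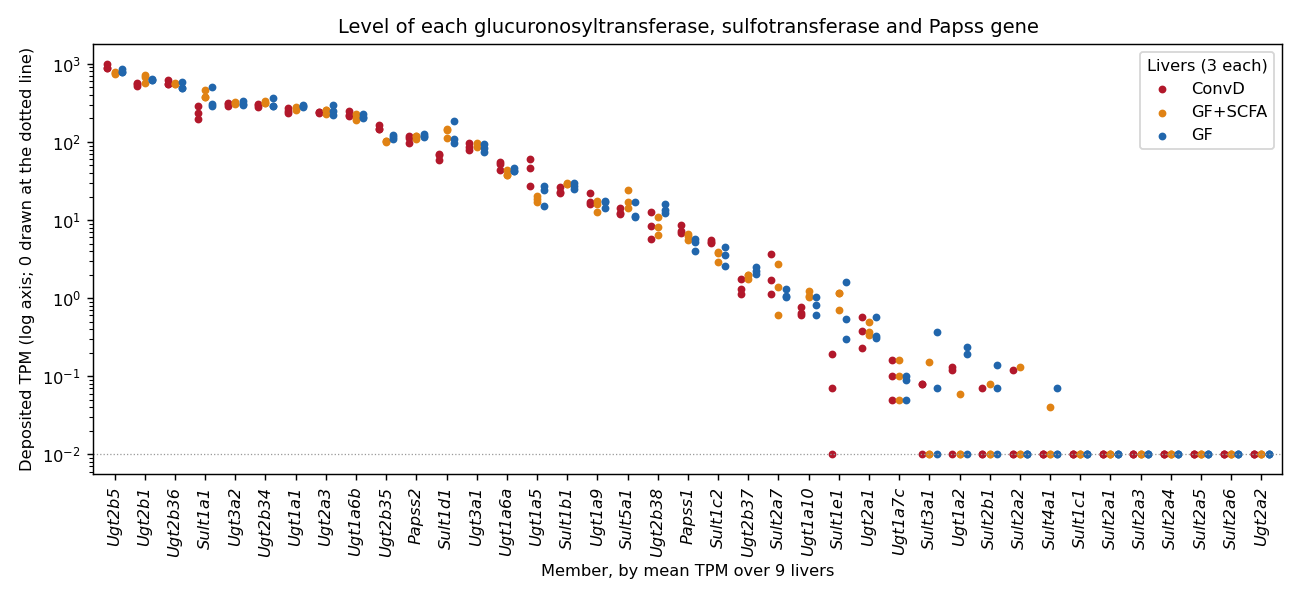
Deposited TPM (log axis, with 0 drawn at the dotted line) of the 39 members in each of the 9 livers, ordered by mean TPM and coloured by group. Ugt2b5 leads with a mean of 835 TPM, and the 7 members at the right end have no count in any liver.

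Libraries held 18193071 to 21627696 estimated counts, and TMM scaling factors ran from 0.935 to 1.06. Between libraries of a group, chi-square divided by its degrees of freedom was 11.1 to 53.5, far above sampling noise, so no pair was a copy. The highest values involved liver 3 of the GF group and liver 3 of the ConvD group. Liver 3 of the GF group had the highest Sult1a1, Sult1d1 and Sult1e1 values of its group, and results that rest on it are also given without it.

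After colonisation, 5 of the 26 tested members changed against GF at an adjusted p under 0.05 (19.2%, against 12.8% of all 12037 genes tested). Papss1 and Ugt2b35 were higher in ConvD livers (7.69%, with 5.93% of all genes called higher), and Sult1d1, Sult1e1 and Ugt2b37 were lower (11.5%, with 6.9% of all genes called lower). The 3 ConvD livers did not overlap the 3 GF livers for 11 of the 26 members (42.3%, against 31.6% of all genes), 4 of them higher in ConvD (15.7% of all genes) and 7 lower (15.9% of all genes). At an unadjusted p under 0.05 there were 12 members (46.2%, against 28.6% of all genes). These counts include Sult1e1, as do those against GF+SCFA below. It passed the filter only through the GF and GF+SCFA livers, so its place among the lower members is tied to that filter. With only the 2 groups compared in the fit it was not tested, and 3 of 25 members changed, 2 higher and 1 lower. Without liver 1 of ConvD only 1 member was called against GF, and without liver 3 of ConvD there were 8. The median log2 fold change was -0.09 over the tested members and 0.00 over all genes tested. Against GF+SCFA livers, 8 of the 26 members changed in ConvD livers (30.8%, against 18.4% of all genes), and 14 members did not overlap (53.8%, against 38% of all genes), 4 of them higher (19% of all genes) and 10 lower (18.9% of all genes). The unadjusted count was 15 (57.7%, against 33.1% of all genes). Without liver 3 of GF+SCFA 4 members were called, and without liver 1 of ConvD 5. Ugt1a5 and Ugt2b35 were higher in ConvD livers, with 9.44% of all genes called higher, and Sult1a1, Sult1b1, Sult1d1, Sult1e1, Ugt1a10 and Ugt2b1 were lower, with 8.97% of all genes called lower. The median log2 fold change of that comparison was -0.12 over the members and 0.01 over all genes. Both comparisons use the same ConvD livers, so they are not independent. The test throughout is edgeR's quasi-likelihood F test on estimated counts, with Benjamini-Hochberg adjustment over all genes tested.

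**Figure D2:**
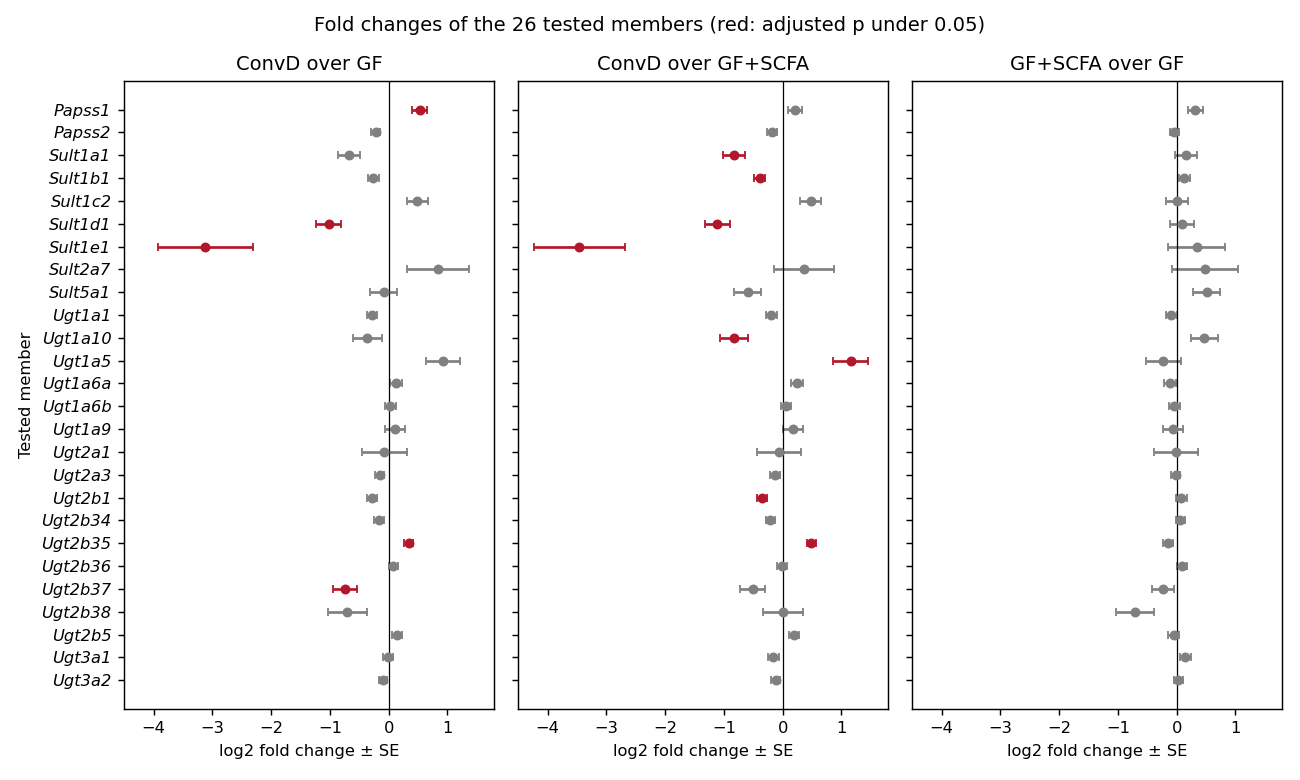
Log2 fold change with its standard error for the 26 tested members in each comparison (ConvD over GF, ConvD over GF+SCFA, GF+SCFA over GF), with red for an adjusted p under 0.05. There are 5 red points in the left panel, 8 in the middle panel and 0 in the right panel, and the fitted size for Sult1e1 rests on 4 counts in the ConvD livers.

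Of the 2 PAPS synthases, the minor one was higher in colonised livers. Papss2 is the main liver form and held 93.5% ± 0.309 of the Papss TPM in ConvD, 95% ± 0.524 in GF+SCFA and 96.1% ± 0.540 in GF livers (SD, n = 3 each). Papss1 had 13.0, 11 and 12.1 CPM in ConvD livers, 10.7, 11 and 9.43 CPM in GF+SCFA livers and 6.85, 9.29 and 8.83 CPM in GF livers. All 3 ConvD livers lay above all 3 GF livers, and the GF+SCFA livers lay above all GF livers and overlapped ConvD. Papss1 rose 1.44-fold in ConvD over GF (log2 fold change 0.53, SE 0.13, adjusted p = 0.0155). The call was lost without liver 1 of ConvD (adjusted p = 0.0590) and without liver 1 of GF (adjusted p = 0.0557). ConvD over GF+SCFA gave a log2 fold change of 0.21 (SE 0.12, adjusted p = 0.258). Papss2 had 255, 217 and 262 CPM in ConvD livers, 268, 276 and 288 CPM in GF+SCFA livers and 282, 295 and 280.0 CPM in GF livers. The ConvD livers were the 3 lowest, with log2 fold changes of -0.22 against GF (SE 0.08, adjusted p = 0.0725) and -0.18 against GF+SCFA (SE 0.08, adjusted p = 0.119). Without liver 3 of ConvD, Papss2 passed against GF (adjusted p = 0.0422).

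Of the 5 tested phenol and hormone sulfotransferases of the Sult1 family, 2 fell in ConvD against GF livers (6.9% of all genes fell) and 4 fell against GF+SCFA livers (8.97% of all genes fell), and none rose. Both counts include Sult1e1, which passed the filter only through the GF and GF+SCFA livers. Of the other 4 genes, 1 fell against GF and 3 fell against GF+SCFA. Sult1d1, which in the mouse sulfates catecholamine-like phenols, had 95.7, 87.6 and 108 CPM in ConvD livers, 177, 218 and 233 CPM in GF+SCFA livers and 152, 175 and 263 CPM in GF livers. Every ConvD liver lay below every liver of the other groups. Sult1d1 was 2.03-fold lower in ConvD than in GF livers (log2 fold change -1.02, SE 0.21, adjusted p = 0.0219) and 2.15-fold lower than in GF+SCFA livers (-1.11, SE 0.21, adjusted p = 0.0118). Without liver 3 of GF, the first of these differences was -0.75 (adjusted p = 0.00305). It was no longer called without liver 1 of ConvD (adjusted p = 0.0703) or liver 2 of ConvD (adjusted p = 0.0807). Against GF+SCFA the call held in each of the 9 fits that left out 1 library, with a highest adjusted p of 0.0478.

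Sult1a1, the main phenol sulfotransferase, had 226, 193 and 166 CPM in ConvD livers, 328, 315 and 399 CPM in GF+SCFA livers and 252, 276 and 400.1 CPM in GF livers. The 3 ConvD livers were the lowest of the 9, and the GF and GF+SCFA livers overlapped. The gene fell 1.78-fold in ConvD against GF+SCFA (log2 fold change -0.83, SE 0.19, adjusted p = 0.0209). That call was lost without liver 3 of GF+SCFA (adjusted p = 0.0595), liver 2 of ConvD (0.0752) or liver 3 of ConvD (0.0635), and also with library totals in place of TMM (0.0560) and in limma on log2 TPM (0.0642). Against GF the log2 fold change was -0.67 (SE 0.19, adjusted p = 0.0577), and it was -0.44 without liver 3 of GF (adjusted p = 0.0588). Leaving out liver 1 of GF, or using DESeq2, brought the second comparison under the threshold, with adjusted p-values of 0.0369 and 0.00105.

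Sult1b1, which sulfates thyroid hormones and small phenols, had 34.3, 35.9 and 44.0 CPM in ConvD livers, 50, 49.4 and 50.2 CPM in GF+SCFA livers and 46.0, 43.5 and 46.7 CPM in GF livers. ConvD livers lay below all GF+SCFA livers, while liver 3 of ConvD reached the GF range. Sult1b1 fell 1.31-fold in ConvD against GF+SCFA (log2 fold change -0.39, SE 0.09, adjusted p = 0.00793), also in each fit that left out 1 library (highest adjusted p = 0.0383). Against GF the log2 fold change was -0.26 (SE 0.09, adjusted p = 0.0691), and it passed without liver 3 of ConvD (-0.37, adjusted p = 0.00640).

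Sult1e1, the estrogen sulfotransferase, was close to silent. It had 1, 3 and 0 estimated counts in ConvD livers, 10, 18 and 17 in GF+SCFA livers and 8, 5 and 25 in GF livers. Every ConvD liver was below every other liver. The 4 counts summed over ConvD livers against 38 in GF livers are a ratio of 0.105 (95% exact interval 0.0273 to 0.292, counting error only), and against 45 in GF+SCFA livers a ratio of 0.0833 (0.0217 to 0.228). The edgeR test gave adjusted p = 0.0232 against GF and 0.00843 against GF+SCFA. The gene passed the filter only through the GF and GF+SCFA livers, so its presence among the tested members is tied to its being lower in ConvD. Without liver 3 of GF, which holds 25 of the 38 counts, the call against GF was lost (adjusted p = 0.0836), as it was without liver 1 of ConvD (0.0804), without liver 3 of ConvD (0.0587) and in limma on log2 TPM (0.0881).

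Sult1c2 had 4.32, 4.88 and 4.68 CPM in ConvD livers, 2.78, 3.43 and 3.71 CPM in GF+SCFA livers and 2.44, 3.46 and 3.90 CPM in GF livers. Its ConvD livers were the 3 highest. The log2 fold changes were 0.49 against GF (SE 0.18, adjusted p = 0.0866) and 0.48 against GF+SCFA (SE 0.18, adjusted p = 0.0801), neither past the threshold. The second passed with the limma test on log2 TPM (adjusted p = 0.0431).

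Summed over its 6 rows, the Sult1 family had 360, 321 and 323 CPM in ConvD livers, 558, 586 and 686 CPM in GF+SCFA livers and 453, 499 and 715 CPM in GF livers. No ConvD sum reached the lowest of the other groups. The log2 ratio of the means was -0.73 for ConvD over GF, -0.87 for ConvD over GF+SCFA and 0.13 for GF+SCFA over GF, with no test on a sum of members. Without liver 3 of GF, the ratio was -0.51 for ConvD over GF and 0.36 for GF+SCFA over GF. Sult1a1 held 71.2% ± 4.98 of the Sult1 TPM in ConvD, 70.3% ± 2.34 in GF+SCFA and 69.4% ± 0.197 in GF livers (SD, n = 3 each). In CPM, the unit of the sums, Sult1a1 averaged 195 in ConvD, 347 in GF+SCFA and 309.7 in GF livers. Sult1d1 averaged 97.2, 209 and 197 CPM in the same order, so the summed level rests mainly on Sult1a1 and Sult1d1. The median log2 fold change over the 5 tested Sult1 members, Sult1e1 included, was -0.67 for ConvD over GF and -0.83 for ConvD over GF+SCFA, beside 0.00 and 0.01 over all genes.

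**Figure D3:**
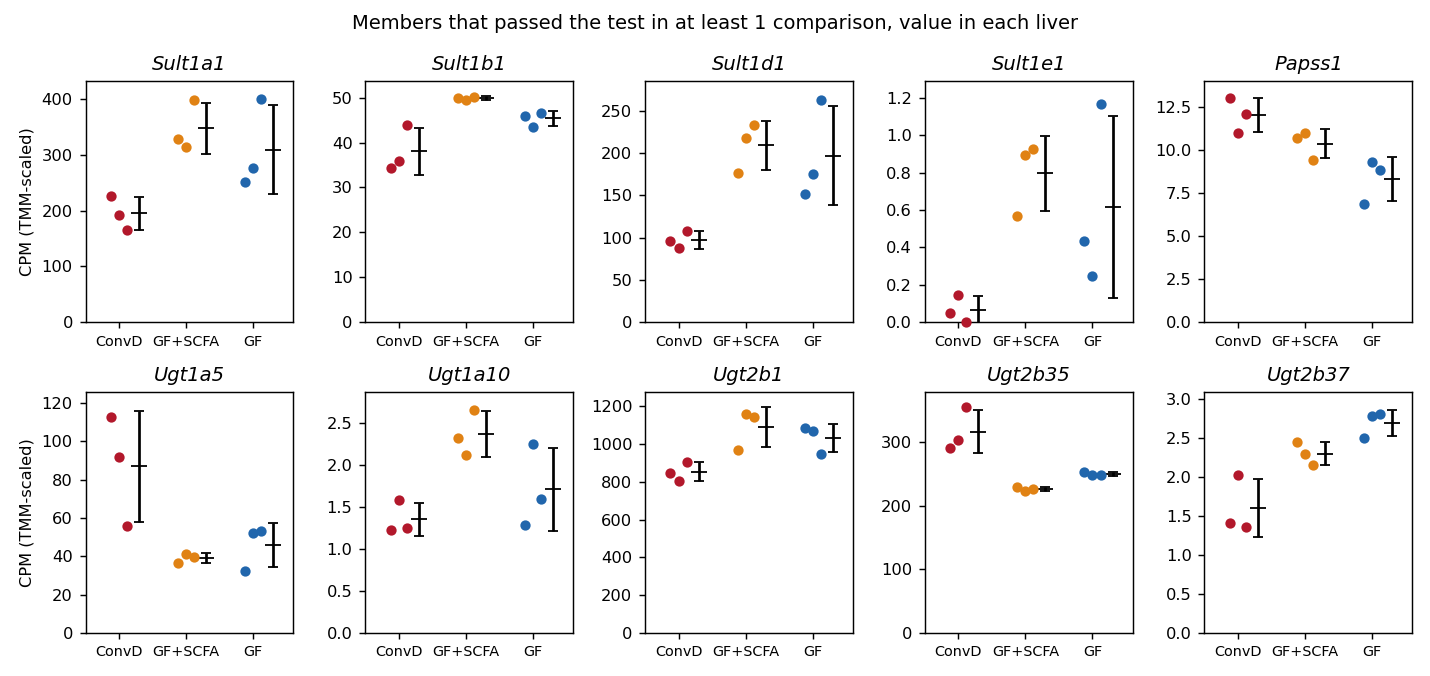
CPM (TMM-scaled) in each liver of the 10 members that passed the test in at least 1 comparison, with the mean and SD of 3 livers beside the points; each vertical axis starts at 0. All 3 ConvD livers lie below every other liver for Sult1a1, Sult1d1, Sult1e1, Ugt2b1 and Ugt2b37, and above every other liver for Ugt1a5 and Ugt2b35.

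Outside Sult1, the sulfotransferases gave no call. Sult2a7, of the family that sulfates hydroxysteroids and bile acids, had 0.825, 0.586 and 1.97 CPM in ConvD livers, 0.340, 1.44 and 0.763 CPM in GF+SCFA livers and 0.598, 0.742 and 0.516 CPM in GF livers. The groups overlapped. Sult5a1 had 7.81, 8.54 and 10.3 CPM in ConvD livers, 12.6, 16.9 and 10.5 CPM in GF+SCFA livers and 12.5, 8.36 and 7.32 CPM in GF livers. GF+SCFA livers lay above all ConvD livers, with a log2 fold change of -0.59 for ConvD over GF+SCFA (SE 0.23, adjusted p = 0.102). That difference passed in DESeq2 (adjusted p = 0.0384), with only the 2 groups compared in the fit (0.0436) and without liver 1 of GF (0.0351). Sult2a enzymes and Sult3a1 are known in the mouse as forms of the female liver. The 7 tested genes of a list of female-biased liver genes, none of them a member, had 6 lower in ConvD than in GF livers, 6 lower in ConvD than in GF+SCFA livers and 0 called in GF+SCFA against GF, beside 6.9%, 8.97% and 0.0415% of all genes. Over all 14 genes of that list, the summed level was 291 to 344 CPM in ConvD, 525 to 579 CPM in GF+SCFA and 493 to 607 CPM in GF livers, with Cyp3a41b at 0. The list thus moved in the same direction as Sult1a1, Sult1b1, Sult1d1 and Sult1e1, while Sult5a1 had -0.08 against GF. Sult1c2 and Sult2a7 went the other way without a call. Their log2 fold changes were 0.49 and 0.84 against GF and 0.48 and 0.36 against GF+SCFA. The part of the list in the members' differences was not tested.

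In the Ugt1a locus, the groups overlapped in the summed level, while Ugt1a5 and Ugt1a10 were called in ConvD against GF+SCFA livers. The 8 rows summed to 1048 ± 53.5 CPM in ConvD, 1037 ± 38.5 CPM in GF+SCFA and 1097 ± 96.6 CPM in GF livers (SD, n = 3 each). Ugt1a5 had 113, 91.9 and 56.0 CPM in ConvD livers, 36.3, 41.3 and 39.6 CPM in GF+SCFA livers and 32.5, 52.2 and 53.1 CPM in GF livers. The ConvD livers were the 3 highest, with liver 3 just above the highest GF liver. Ugt1a5 rose 2.23-fold in ConvD against GF+SCFA (log2 fold change 1.16, SE 0.30, adjusted p = 0.0401). Against GF the log2 fold change was 0.92 (SE 0.29, adjusted p = 0.0912). Ugt1a2, whose own sequence it shares at the joint, had at most 0.464 CPM in any liver, so adding its reads could change little. The sums were 113, 91.9 and 56.2 CPM in ConvD, 36.3, 41.4 and 39.6 CPM in GF+SCFA and 32.9, 52.2 and 53.5 CPM in GF livers. The common exons make up 59.5% of the Ugt1a5 transcript, and the division of their reads among the Ugt1a rows was not tested. As a share of the locus in TPM, Ugt1a5 held 7.49% ± 2.71 in ConvD, 3.38% ± 0.260 in GF+SCFA and 3.78% ± 1.03 in GF livers.

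The Ugt1a5 call depended on single libraries. It was lost in 7 of 9 fits that left out 1 library. The adjusted p was 0.0606 without liver 2 of GF, 0.0598 without liver 3 of GF, and 0.116, 0.105 and 0.107 without liver 1, 2 or 3 of GF+SCFA. It was 0.0909 without liver 1 of ConvD and 0.109 without liver 2 of ConvD. It was also lost without a filter on low counts (0.0599), in limma on log2 TPM (0.0527) and with only the 2 groups compared in the fit (0.0553). Against GF, Ugt1a5 passed in DESeq2 (0.0245) and without liver 3 of ConvD (0.0170).

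Ugt1a1, the enzyme that conjugates bilirubin, had 441, 498 and 561 CPM in ConvD livers, 598, 565 and 546 CPM in GF+SCFA livers and 599, 660 and 562 CPM in GF livers. The ConvD livers lay just below the GF livers and overlapped the GF+SCFA livers. The log2 fold change was -0.28 against GF (SE 0.09, adjusted p = 0.0635) and -0.19 against GF+SCFA (SE 0.09, adjusted p = 0.174). Ugt1a1 passed against GF in DESeq2 (0.0464), without liver 3 of GF (0.0448) and without liver 3 of ConvD (0.0188), and against GF+SCFA without liver 3 of ConvD (0.0483). Its share of the locus in TPM was 42.2% ± 3.71 in ConvD, 48.9% ± 1.71 in GF+SCFA and 49.4% ± 0.493 in GF livers.

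Ugt1a10 was a low member, with 1.23, 1.58 and 1.25 CPM in ConvD livers, 2.32, 2.12 and 2.66 CPM in GF+SCFA livers and 1.28, 2.25 and 1.60 CPM in GF livers. GF+SCFA livers lay above all ConvD livers, and the GF livers overlapped both groups. It fell 1.78-fold in ConvD against GF+SCFA (log2 fold change -0.83, SE 0.24, adjusted p = 0.0255), with -0.36 against GF (SE 0.24, adjusted p = 0.357). The call was lost without liver 1 or 3 of GF+SCFA (adjusted p = 0.0574 and 0.0953) and without liver 1 or 3 of ConvD (0.0838 and 0.0638).

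The planar-phenol enzymes Ugt1a6a and Ugt1a6b, with 80.6% and 80.7% of their 50-base windows found in another member, are given together. Their summed CPM was 434, 389 and 445 in ConvD livers, 386, 425 and 367 in GF+SCFA livers and 408, 456 and 361 in GF livers. All 3 groups overlapped. Ugt1a6a alone had 101, 89.1 and 118 CPM in ConvD livers, 82.7, 93.0 and 83.5 CPM in GF+SCFA livers and 93.0, 104 and 85.3 CPM in GF livers, with a log2 fold change of 0.25 for ConvD over GF+SCFA (SE 0.10, adjusted p = 0.109). That difference passed with library totals in place of TMM (0.0330), in limma on log2 TPM (0.0473) and without liver 2 of ConvD (0.0408). Ugt1a6b had 334, 300 and 327 CPM in ConvD livers, 303, 332 and 283 CPM in GF+SCFA livers and 315, 352 and 275 CPM in GF livers, with overlap throughout. Ugt1a9, which also glucuronidates phenols in humans, had 30, 33.6 and 46.1 CPM in ConvD livers, 34.6, 26.4 and 36.8 CPM in GF+SCFA livers and 37.6, 31.3 and 32.9 CPM in GF livers. Its groups overlapped too, and its adjusted p-values were 0.553 to 0.921.

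The Ugt2 genes and 3 of the Sult1 genes are neighbours on mouse chromosome 5. In the order of the RefSeq table for GRCm38.p6, 13 members, namely all 7 Ugt2b, all 3 Ugt2a, Sult1b1, Sult1d1 and Sult1e1, follow each other with no other protein-coding gene between them. The 250 bases before the RefSeq start are shown for the 3 Sult1 genes of the block, lower together in ConvD than in GF+SCFA livers, and for Ugt2b35, the block's gene that was higher. They lie at chr5:87538196-87538445, chr5:87569007-87569256 and chr5:87591612-87591861 on the minus strand for Sult1b1, Sult1d1 and Sult1e1, and at chr5:87000610-87000859 on the plus strand for Ugt2b35. Capitals mark matches on either strand to 5 motifs. These are GCGTG (core of the element bound by AHR and ARNT), TGACNNNGC (core of the antioxidant element), the nuclear receptor hexamers AGGTCA and AGTTCA, and GTTAAT (core of HNF1 sites).
Sult1b1: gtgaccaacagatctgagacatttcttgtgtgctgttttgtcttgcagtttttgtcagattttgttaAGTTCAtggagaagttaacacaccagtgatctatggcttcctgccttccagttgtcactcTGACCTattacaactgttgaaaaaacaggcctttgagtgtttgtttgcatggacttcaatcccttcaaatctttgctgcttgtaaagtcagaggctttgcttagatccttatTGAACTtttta
Sult1d1: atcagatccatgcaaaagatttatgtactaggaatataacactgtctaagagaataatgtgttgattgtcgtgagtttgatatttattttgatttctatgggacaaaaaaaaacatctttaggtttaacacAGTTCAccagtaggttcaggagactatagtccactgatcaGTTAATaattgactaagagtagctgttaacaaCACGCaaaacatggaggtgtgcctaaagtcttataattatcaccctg
Sult1e1: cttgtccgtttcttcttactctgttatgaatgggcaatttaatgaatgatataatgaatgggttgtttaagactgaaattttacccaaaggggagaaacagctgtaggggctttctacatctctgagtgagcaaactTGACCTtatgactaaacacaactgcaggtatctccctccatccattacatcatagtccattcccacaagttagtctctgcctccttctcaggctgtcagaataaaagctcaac
Ugt2b35: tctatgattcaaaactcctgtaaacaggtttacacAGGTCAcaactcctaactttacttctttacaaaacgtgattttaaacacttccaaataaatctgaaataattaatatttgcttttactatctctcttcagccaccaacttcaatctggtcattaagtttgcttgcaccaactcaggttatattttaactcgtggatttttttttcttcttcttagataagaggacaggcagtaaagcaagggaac
The windows held 3, 3, 1 and 1 matches for Sult1b1, Sult1d1, Sult1e1 and Ugt2b35, none of which overlapped another. Of the 37 RefSeq windows of 33 members, 32.4% held GTTAAT, 27% AGGTCA, 21.6% AGTTCA, 16.2% GCGTG and 0% TGACNNNGC. Of all 32851 windows of that length in the table, 6.43%, 14%, 11.8%, 28.2% and 10.2% held them in the same order. Several member windows come from recent gene copies and share sequence, and a match to these letters is no evidence of binding.

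Ugt2b35 had the lowest adjusted p of the 26 tested members in both comparisons with ConvD. It had 291, 304 and 355 CPM in ConvD livers, 229, 223 and 226 CPM in GF+SCFA livers and 254, 249 and 248 CPM in GF livers. The 3 groups did not overlap, with ConvD highest and GF+SCFA lowest. Ugt2b35 rose 1.26-fold in ConvD over GF (log2 fold change 0.34, SE 0.08, adjusted p = 0.0123) and 1.40-fold over GF+SCFA (0.49, SE 0.08, adjusted p = 0.000981). Both calls held in every one of the 9 fits that left out 1 library, with highest adjusted p-values of 0.0376 and 0.00688. Its share of the Ugt2b TPM was 6.05% ± 0.0838 in ConvD, 4.25% ± 0.118 in GF+SCFA and 4.77% ± 0.106 in GF livers (SD, n = 3 each). None of its 50-base windows occurs in another member.

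Ugt2b1, a glucuronosyltransferase of steroids and bile acid-like substrates, had 847, 807 and 908 CPM in ConvD livers, 969, 1159 and 1146 CPM in GF+SCFA livers and 1084, 1071 and 949 CPM in GF livers. Every ConvD liver lay below every other liver. It fell 1.28-fold in ConvD against GF+SCFA (log2 fold change -0.35, SE 0.09, adjusted p = 0.0158). Against GF the log2 fold change was -0.28 (SE 0.09, adjusted p = 0.0596). The call was lost without liver 2 or 3 of GF+SCFA (adjusted p = 0.0763 and 0.0678), without liver 1 or 2 of ConvD (0.0515 and 0.0667) and in limma on log2 TPM (0.0702). Against GF it passed in DESeq2 (0.0332), without liver 3 of GF (0.0385) and without liver 3 of ConvD (0.0467). Ugt2b1 held 21.8% ± 1.15 of the Ugt2b TPM in ConvD, 27.3% ± 2.29 in GF+SCFA and 26.2% ± 1.73 in GF livers.

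Ugt2b37 had 1.41, 2.03 and 1.36 CPM in ConvD livers, 2.45, 2.30 and 2.16 CPM in GF+SCFA livers and 2.50, 2.78 and 2.81 CPM in GF livers. The 3 groups did not overlap, with ConvD lowest and GF highest. Ugt2b37 fell 1.67-fold in ConvD against GF (log2 fold change -0.74, SE 0.20, adjusted p = 0.0271), with -0.51 against GF+SCFA (SE 0.21, adjusted p = 0.101). The first call was lost without liver 2 or 3 of GF (adjusted p = 0.0693 and 0.0637), without liver 1 or 3 of ConvD (0.0947 and 0.0733) and with only the 2 groups compared in the fit (0.0556). The second passed without liver 2 of ConvD (0.0486). Of its 50-base windows, 15.2% also occur in Ugt2b5, and it averaged 1.86 TPM against 835 TPM for Ugt2b5, so the division of shared reads bears on its value.

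Ugt2b5 itself had 975, 1014 and 1209 CPM in ConvD livers, 965, 918 and 918 CPM in GF+SCFA livers and 953, 1004 and 946 CPM in GF livers. ConvD livers lay above all GF+SCFA livers and overlapped the GF livers. The log2 fold change was 0.19 for ConvD over GF+SCFA (SE 0.09, adjusted p = 0.141) and passed with library totals in place of TMM (0.0399) and in limma on log2 TPM (0.0378). Ugt2b38, the closest relative of Ugt2b5 among the members, had 6.22, 14.8 and 10.1 CPM in ConvD livers, 10.2, 7.70 and 13.2 CPM in GF+SCFA livers and 19.7, 17.2 and 13.9 CPM in GF livers. All GF+SCFA livers lay below all GF livers, and ConvD overlapped both. Its log2 fold changes were -0.70 for ConvD over GF and -0.71 for GF+SCFA over GF (SE 0.33 each, adjusted p = 0.209 and 0.446).

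The remaining Ugt2 members gave no call. Ugt2b36 had 605, 645 and 753 CPM in ConvD livers, 681, 670 and 668 CPM in GF+SCFA livers and 607, 625 and 662 CPM in GF livers. Ugt2b34 had 534, 526 and 598 CPM in ConvD livers, 644, 649 and 630 CPM in GF+SCFA livers and 586, 596 and 666 CPM in GF livers. ConvD livers lay below all GF+SCFA livers for Ugt2b34 (log2 fold change -0.21, SE 0.08, adjusted p = 0.0724, and 0.0291 without liver 3 of ConvD). Ugt2a3 had 292, 308 and 326 CPM in ConvD livers, 320 to 353 CPM in GF+SCFA livers with a median of 338, and 305, 351 and 368 CPM in GF livers. Its groups overlapped. Ugt2a1 was at 0.378 to 0.929 CPM in the 9 livers, and Ugt2a2 had no count.

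**Figure D4:**
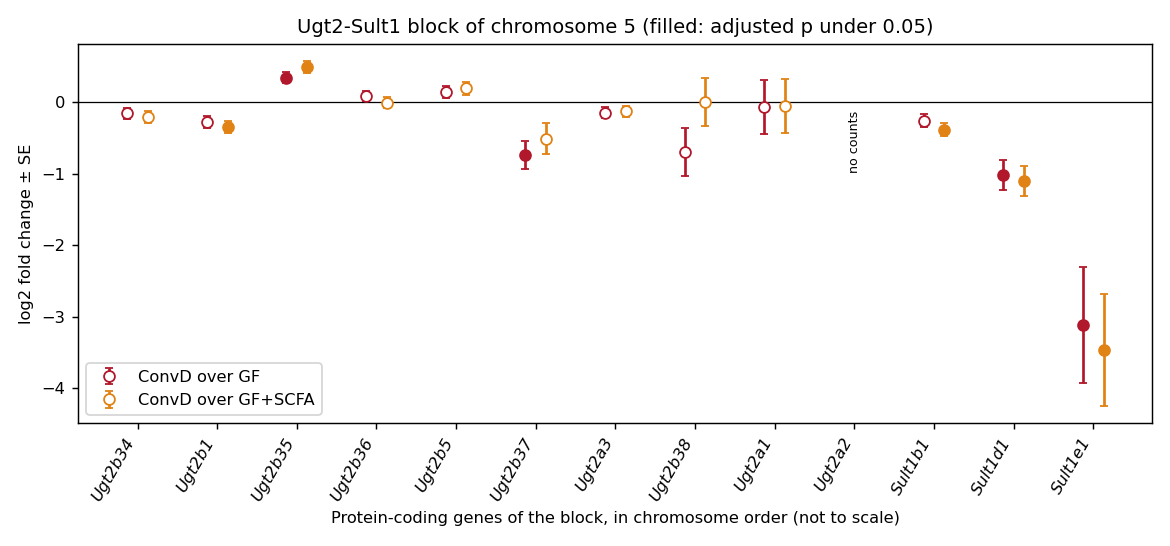
Log2 fold change with its standard error of the members of the chromosome 5 block, in chromosome order and not to scale, for ConvD over GF and ConvD over GF+SCFA; filled points have an adjusted p under 0.05. Ugt2b35 is the filled point above 0 in both comparisons, Sult1d1 and Sult1e1 are filled below 0 in both, and the fitted size for Sult1e1 rests on 4 counts in ConvD livers.

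The Ugt3a enzymes, of which the human UGT3A1 uses UDP-N-acetylglucosamine in place of UDP-glucuronate, gave no call either. Ugt3a2 had 392, 391 and 446 CPM in ConvD livers, 454, 451 and 435 CPM in GF+SCFA livers and 424, 458 and 434 CPM in GF livers. Ugt3a1 had 111, 109 and 138 CPM in ConvD livers, 136, 138 and 127 CPM in GF+SCFA livers and 123, 112 and 126 CPM in GF livers. ConvD livers overlapped both other groups for both genes, and Ugt3a1 passed in ConvD against GF+SCFA only without liver 3 of ConvD (log2 fold change -0.28, adjusted p = 0.0211, against -0.16 and 0.219 with it).

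The 7 Ugt2b rows summed to 3469 ± 317 CPM in ConvD, 3578 ± 67.9 CPM in GF+SCFA and 3519 ± 40.5 CPM in GF livers. The Ugt3a rows summed to 529 ± 47.8 CPM in ConvD, 580 ± 15.3 CPM in GF+SCFA and 559 ± 11.1 CPM in GF livers, and the Ugt2a rows to 309 ± 16.8, 337 ± 16.8 and 342 ± 32.6 CPM in the same order of groups (SD, n = 3 each). For Ugt1a, Ugt2a, Ugt2b and Ugt3a the ConvD sums overlapped those of the GF livers. The Papss rows summed to 268, 228 and 274 CPM in ConvD livers, 279, 287 and 297 CPM in GF+SCFA livers and 288, 304 and 289 CPM in GF livers. The ConvD sums were the 3 lowest in CPM. In deposited TPM the Papss sums overlapped, with 128, 103 and 119 TPM in ConvD livers, 117, 126 and 125 TPM in GF+SCFA livers and 121, 125 and 134 TPM in GF livers. Their log2 ratio was -0.17 in CPM and -0.07 in TPM for ConvD over GF+SCFA, and -0.20 and -0.12 for ConvD over GF.

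**Figure D5:**
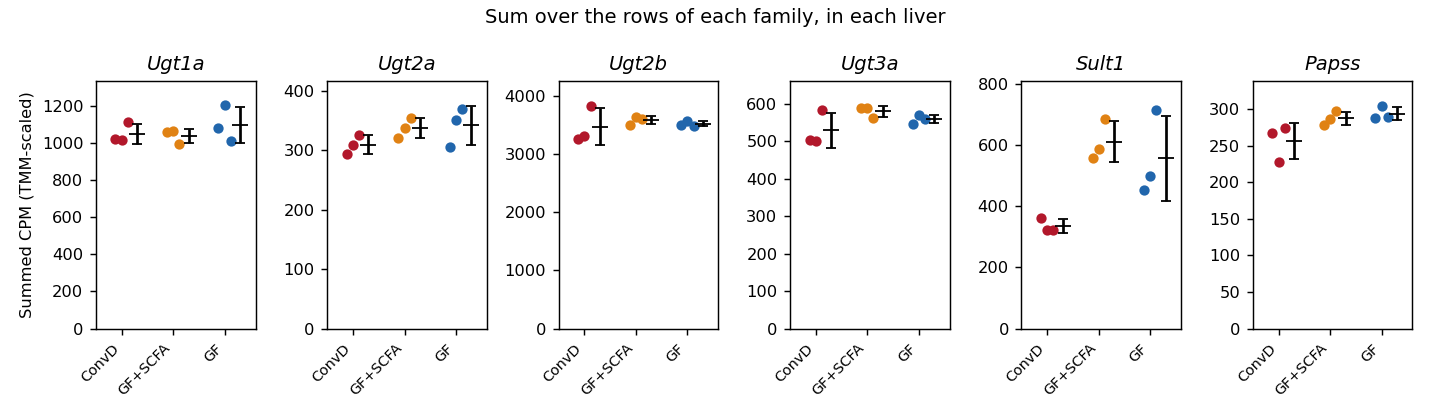
Summed CPM (TMM-scaled) over the rows of 6 families in each liver, with the mean and SD of 3 livers beside the points; each vertical axis starts at 0. The Sult1 sums of ConvD livers (321 to 360 CPM) lie below all those of GF+SCFA (558 to 686 CPM) and GF livers (453 to 715 CPM), while the Ugt1a and Ugt2b sums overlap between groups.

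Butyrate, propionate and acetate supplied without colonisation gave no call among the members. In GF+SCFA against GF livers, 0 of the 26 tested members passed edgeR's quasi-likelihood test, DESeq2 or limma on log2 TPM, against 0.0415% of all genes called by edgeR (0.00831% higher and 0.0332% lower). At an unadjusted p under 0.05, edgeR gave 2 members, Papss1 and Sult5a1, against 12.3% of all genes. The 3 GF+SCFA livers did not overlap the 3 GF livers for 7 members (26.9%, against 17.9% of all genes), 4 of them higher (9.02% of all genes) and 3 lower (8.91% of all genes). Papss1 was one of them, with a log2 fold change of 0.32 (SE 0.13, adjusted p = 0.346), and Ugt2b35 another, with -0.15 (SE 0.08, adjusted p = 0.463). Sult5a1 had a log2 fold change of 0.51 (SE 0.23, adjusted p = 0.402) and overlapping groups. The median log2 fold change was 0.02 over the members and -0.01 over all genes tested.

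Ugdh and Slc35d2, which make or carry sugar donors, were higher in ConvD than in GF livers. Of 8 tested genes for making, moving and releasing UDP-glucuronate or its sugar, 2 rose and 0 fell in ConvD over GF+SCFA, where 9.44% of all genes rose and 8.97% fell. In GF+SCFA over GF 0 changed, against 0.0415% of all genes. Ugdh, which makes UDP-glucuronate, had 209 ± 15.2 CPM in ConvD, 128 ± 9.86 CPM in GF+SCFA and 129 ± 10.8 CPM in GF livers (SD, n = 3 each). Its log2 fold change was 0.69 against GF (SE 0.08, adjusted p = 0.000257) and 0.71 against GF+SCFA (SE 0.08, adjusted p = 0.000150). The nucleotide sugar transporter Slc35d2 rose by 0.52 on the log2 scale against GF (SE 0.09, adjusted p = 0.00231) and by 0.42 against GF+SCFA (SE 0.09, adjusted p = 0.00541). Gusb, the host beta-glucuronidase that removes glucuronate, had 25.1 ± 2.53 CPM in ConvD, 24.7 ± 1.67 CPM in GF+SCFA and 25.3 ± 0.816 CPM in GF livers.

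Of 18 tested genes for sulfate supply, PAPS handling and sulfate release, 3 rose and 0 fell in ConvD over GF, where 5.93% of all genes rose and 6.9% fell. Against GF+SCFA 3 rose and 0 fell, beside 9.44% and 8.97% of all genes, and 0 changed in GF+SCFA over GF, beside 0.0415% of all genes. Arsa, a lysosomal sulfatase that removes sulfate from sulfatides, had 55.0 ± 5.54 CPM in ConvD, 22.2 ± 2.67 CPM in GF+SCFA and 25.9 ± 4.58 CPM in GF livers. It rose by 1.09 on the log2 scale against GF (SE 0.13, adjusted p = 0.000454) and by 1.31 against GF+SCFA (SE 0.13, adjusted p = 0.000101). Ethe1, a mitochondrial persulfide dioxygenase of sulfide breakdown, had 41.8 ± 0.913 CPM in ConvD, 23.4 ± 2.09 CPM in GF+SCFA and 24.2 ± 2.89 CPM in GF livers (0.79 against GF, SE 0.09, adjusted p = 0.000238). Slc35b3, which carries PAPS into the Golgi, rose against GF (0.41, SE 0.12, adjusted p = 0.0426), and the anion exchanger Slc26a6 against GF+SCFA (0.73, SE 0.23, adjusted p = 0.0376). None of these genes acts in the transfer of sulfate to phenols in the cytosol.

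Of 11 tested transporters that move conjugates across the liver cell membrane, 0 rose and 2 fell in ConvD against GF (5.93% of all genes rose and 6.9% fell), namely Slco1a1 (578 ± 33.0 CPM in ConvD, 728 ± 37.4 CPM in GF livers, adjusted p = 0.0106) and Abcc6 (118 ± 9.07 and 145 ± 14.8 CPM in the same order, adjusted p = 0.0318). No transporter was called in the other comparisons, beside 18.4% of all genes in ConvD against GF+SCFA and 0.0415% in GF+SCFA against GF. Abcc2, the canalicular exporter of glucuronides, had 611 ± 106 CPM in ConvD, 598 ± 15.4 CPM in GF+SCFA and 692 ± 73.2 CPM in GF livers. The sinusoidal exporter Abcc3 had 325 ± 23.1 CPM in ConvD, 255 ± 34.8 CPM in GF+SCFA and 309 ± 60 CPM in GF livers.

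Among receptors and factors known to act on conjugation genes, Ahr, Nr1i2 and Nr1i3 were lower in ConvD than in either other group. Of 21 tested, 2 rose and 6 fell against GF, beside 5.93% and 6.9% of all genes. Against GF+SCFA 3 rose and 8 fell, beside 9.44% and 8.97% of all genes. None changed in GF+SCFA against GF, beside 0.0415% of all genes. The xenobiotic receptor Nr1i3 (CAR) had 70.2 ± 6.75 CPM in ConvD, 121 ± 9.37 CPM in GF+SCFA and 107 ± 13.9 CPM in GF livers (log2 fold change -0.60 against GF, adjusted p = 0.00252). The pregnane receptor Nr1i2 (PXR) had 59.4 ± 5.84 CPM in ConvD, 94.3 ± 4.68 CPM in GF+SCFA and 75.6 ± 11.7 CPM in GF livers (-0.35 against GF, adjusted p = 0.0422). The aryl hydrocarbon receptor Ahr had 36.3 ± 4.87 CPM in ConvD, 65.1 ± 9.73 CPM in GF+SCFA and 56.3 ± 8.39 CPM in GF livers (-0.63 against GF, adjusted p = 0.0181). A further list held 14 tested marker targets of the whole set of receptors and factors, not of Nr1i3, Nr1i2 and Ahr alone. Of these, 4 rose and 2 fell in ConvD against GF, as against GF+SCFA, beside the same shares of all genes. Abcb11, Cyp3a11, Gclc and Srxn1 rose and Cyp7a1 and Por fell in both comparisons. In GF+SCFA against GF 0 changed, beside 0.0415% of all genes. Cyp3a11, a target of Nr1i2, was higher, with 2146 ± 66.9 CPM in ConvD, 654 ± 79.8 CPM in GF+SCFA and 546 ± 195 CPM in GF livers (1.97 against GF, adjusted p = 0.00241). Por, the reductase that serves cytochromes P450, was lower, with 329 ± 21.9 CPM in ConvD, 709 ± 27.9 CPM in GF+SCFA and 646 ± 70.1 CPM in GF livers (-0.97 against GF, adjusted p = 5.05e-05). The Ahr targets Cyp1a2 and Tiparp gave adjusted p-values of 0.357 and 0.738 for ConvD over GF.

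Summed Kupffer cell and macrophage markers, and summed neutrophil markers, were higher in ConvD than in GF and GF+SCFA livers. Of 11 hepatocyte markers, 1 was higher and 2 were lower in ConvD than in GF livers (5.93% and 6.9% of all genes). Against GF+SCFA livers 2 were higher and 3 lower (9.44% and 8.97% of all genes). They summed to 111879 to 139260.5 CPM in ConvD, 111479.8 to 130229.7 CPM in GF+SCFA and 117858 to 135088 CPM in GF livers. Of 10 Kupffer cell and macrophage markers, 7 were higher in ConvD than in GF livers and 2 higher than in GF+SCFA livers, with sums of 378 to 575 CPM in ConvD, 308 to 373 CPM in GF+SCFA and 259 to 336 CPM in GF livers. All 4 tested neutrophil markers were higher in ConvD than in either other group. The neutrophil list summed to 6.91 to 11.8 CPM in ConvD, 0.199 to 0.624 CPM in GF+SCFA and 0.594 to 0.986 CPM in GF livers. With so few counts in the other groups, the tested neutrophil genes passed the filter largely through the ConvD livers. Their count is thus tied to that filter. Of 5 cholangiocyte markers 1 and of 7 stellate cell markers 3 were higher in ConvD than in GF+SCFA livers. The cholangiocyte list summed to 40.5 to 62.8 CPM in ConvD, 24.8 to 29.3 CPM in GF+SCFA and 41.8 to 47.8 CPM in GF livers. The stellate cell sums were 283 to 289, 222 to 258 and 264 to 294 CPM in the same order. For both lists the ConvD sums overlapped the GF sums, and the GF+SCFA sums were the lowest. One stellate cell marker was lower in GF+SCFA than in GF livers, and 1 of 6 endothelial markers was lower in ConvD than in GF livers. Of 2 tested pancreatic markers 1 was lower in ConvD than in either other group. The part of these cells in the members' differences was not tested. Markers at 0 in all 9 libraries were Alpi and Sis of enterocytes, Umod and Slc12a1 of kidney tubules and Pnlip and Prss2 of the pancreas. So were Adipoq, Lep and Plin1 of adipocytes. Other genes of these lists had counts. The enterocyte list summed to 99.8 to 164 CPM in ConvD, 122 to 131 CPM in GF+SCFA and 107 to 119 CPM in GF livers. The pancreatic sums were 15.7 to 19.0, 23.3 to 26.2 and 20.8 to 21.7 CPM in the same order. The adipocyte sums were 1.81 to 5.05, 1.53 to 2.53 and 0.924 to 2.25 CPM. Kidney tubule sums were 0.195 to 0.728, 0.164 to 0.567 and 0.326 to 0.544 CPM.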

How the data were processed

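Whole-liver polyadenylated RNA of 9 mice was sequenced with a stranded library kit, per the labels' protocols. The submitters' processing notes name Bowtie2, RSEM 1.2.23 and the mouse build mm9. Neither the Bowtie2 version nor read length or strand setting is known from these sources; antisense overlaps may therefore share reads. Each file holds 20325 gene rows. The deposited expected counts are the authors' RSEM estimates of reads per gene, not normalised, and need not be whole, since a read matching several genes is divided. Per the file headers, the authors also gave TPM, scaled to gene length and depth.

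After rounding of the estimates to whole numbers, edgeR 4.0.16 was run in R 4.3.3 (filterByExpr with a minimum count of 10, leaving 12037 genes; TMM; robust quasi-likelihood F test in a model of 3 groups and all 9 livers with 6 residual degrees of freedom; Benjamini-Hochberg adjustment; threshold 0.05). The script was tested on simulated data. CPM are counts scaled to the TMM-adjusted library total. Standard errors (SE) were derived from the log2 fold change and F. The biological coefficient of variation was 10.6%. Sample depth was 18193071 to 21627696 estimated counts. Alternatives were RLE, upper-quartile and library-total scaling, no filter, DESeq2 1.42.0, limma 3.58.1 on log2(TPM + 0.5), only the 2 groups compared, a replicate block and each library left out.

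The members and lists were chosen with earlier results of these data known. Values in every liver are given for members called in any comparison, the 10 with the highest mean TPM and those with a mean of at least 1 TPM, and the rest by range. The members' transcripts were read from GENCODE M21 (GRCm38) and the windows before their starts from RefSeq (GRCm38.p6); the build of the files, mm9, was not used for coordinates. One result of the sugar donor list is not reported here.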

Additional observations from a re-analysis of the deposited data

How the results depend on the processing

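No called member reversed its direction under any alternative run. Members changed in ConvD against GF numbered 5, against 9 in DESeq2, 3 with only the 2 groups compared and 1 to 8 with each library left out, the lowest without liver 1 of ConvD and the highest without liver 3 of ConvD. In ConvD against GF+SCFA they numbered 8, against 4 to 9 with each library left out, the lowest without liver 3 of GF+SCFA. In GF+SCFA against GF they numbered 0 under every alternative. Over all genes, ConvD against GF gave 1544 calls, 1015 in limma on log2 TPM and 849 to 1466 with each library left out (lowest without liver 2 of ConvD), and ConvD against GF+SCFA gave 2216 and 1383 to 2393 (lowest without liver 2 of GF+SCFA). GF+SCFA against GF gave 5 calls, 9 with library totals, 24 with no filter, 82 in DESeq2, 1 in limma on log2 TPM and 0 to 173 with each library left out, the highest without liver 3 of GF. The cause of these shifts was not tested.

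Scaling moved the split of calls over all genes: 46.2% of the calls of ConvD against GF were higher with TMM, 66.1% with upper-quartile factors and 73.1% with library totals, and in ConvD against GF+SCFA 51.3%, 66.8% and 72.4%. The median gene moved by at most 0.08 (log2). The members called in ConvD against GF were 2 higher and 3 lower with each of these scalings, and in ConvD against GF+SCFA 4 higher and 5 lower with library totals, against 2 and 6 with TMM. Summed in deposited TPM instead of CPM, the log2 ratio of ConvD over GF+SCFA was 0.11 for Ugt1a (0.02 in CPM), -0.04 for Ugt2a (-0.13) and 0.06 for Ugt2b (-0.04), and that of GF+SCFA over GF was 0.00 for Ugt2b (0.02).

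Same-numbered livers correlated at -0.0662 to 0.139 in their deviations from group means, so the numbers were not taken to pair the samples. With the replicate block, members changed numbered 5, 0 and 8 and all genes 1514, 5 and 2195 in ConvD against GF, GF+SCFA against GF and ConvD against GF+SCFA. In ConvD against GF+SCFA the block took the call from Ugt1a5 (adjusted p = 0.0983) and gave one to Sult1c2 (0.0484). Depth limits the members with few counts, Sult1e1, Ugt2a1, Ugt1a10, Ugt2b37 and Sult2a7.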
